A study of Mus musculus with 10 samples.

Results

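The expression of 9 genes of retinoid binding and metabolism, Rbp2, Crabp1, Crabp2, Rdh10, Dhrs9, Aldh1a2, Aldh1a3, Cyp26b1 and Stra6, was followed in single cells of embryonic mouse back skin. They were taken by symbol from 32285 listed genes at E15.5 and E17.5 and from 27998 at E16.5, and all 9 were in both lists. They were picked with their levels in these samples in view, so those levels are described and no test is given for them. Each library was made from the dissociated total back skin of mice on a mixed C57Bl/6J and CD-1 background. MOF cKO embryos carried floxed alleles of Mof (gene symbol Kat8, a histone acetyltransferase) and Krt14-Cre, labelled MOFfl/fl/K14Cre, and QPC cKO embryos carried floxed alleles of Uqcrq (also called QPC, part of complex III of the respiratory chain) with the same Cre, labelled QPCfl/fl/K14Cre. Krt14-Cre acts in the epithelium, so fibroblasts and other dermal cells were not targeted. Controls were labelled by that word alone, and the study took wild-type or heterozygous littermates. There were 2 control libraries (replicates 2 and 3) and 2 MOF cKO libraries (replicates 5 and 6) at E15.5, 2 and 2 at E16.5, and 1 control and 1 QPC cKO library at E17.5. The study describes MOF cKO replicate 6 at E15.5 as mosaic for the deletion. Kit version changed with stage, and E16.5 also had another gene list, so a difference between stages cannot be told apart from these.

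Retinol enters cells with the help of the receptor Stra6 and is held there by retinol binding proteins such as Rbp2. Retinol dehydrogenases (Rdh10, Dhrs9) oxidise it to retinal, and retinal dehydrogenases (Aldh1a2, Aldh1a3) make retinoic acid. Crabp1 and Crabp2 bind retinoic acid in the cytoplasm, Crabp2 passing it to nuclear receptors, and Cyp26b1 breaks it down, and in skin retinoic acid is known as a regulator of epidermal differentiation and hair follicle growth.

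Promoter-proximal sequences are shown because Rbp2 and Crabp1 marked opposite compartments of the skin, differentiating keratinocytes and fibroblasts. They are the 250 bases before the RefSeq start site (GRCm38.p6), 5' to 3', in lower case. Capitals mark, on either strand, hexamers that nuclear receptors can bind (AGGTCA, together with the related hexamer AGTTCA, the similar hexamer GGGTCA and also the hexamer GGTTCA) and the TATA box sequence TATAAA. None of these overlapped in the windows shown. Of the 9 genes, 6 (Rbp2, Crabp1, Dhrs9, Aldh1a2, Cyp26b1, Stra6) were matched.
Rbp2, chr9:98490287-98490536, plus strand: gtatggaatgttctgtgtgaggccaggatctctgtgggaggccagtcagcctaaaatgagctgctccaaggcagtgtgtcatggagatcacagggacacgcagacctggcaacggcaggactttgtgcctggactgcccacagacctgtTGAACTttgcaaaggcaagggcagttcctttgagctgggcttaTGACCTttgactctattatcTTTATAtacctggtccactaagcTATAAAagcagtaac
Crabp1, chr9:54764498-54764747, plus strand: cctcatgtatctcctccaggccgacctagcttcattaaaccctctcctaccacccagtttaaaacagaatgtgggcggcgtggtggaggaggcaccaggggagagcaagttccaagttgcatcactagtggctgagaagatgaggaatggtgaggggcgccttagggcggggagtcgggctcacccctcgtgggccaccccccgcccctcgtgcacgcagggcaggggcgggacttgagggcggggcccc
In the GENCODE annotation the Rbp2 window lies between exons of the gene, in an intron of a longer transcript, and the Crabp1 window ends 1 base before the gene. The Rbp2 window held 2 hexamers, both on the reverse strand, which began 101 and 58 bases before the start site, and its TATAAA matches began 38 and 15 bases before it. At least 2 hexamers were present in 9.75% of 32851 RefSeq windows of this length and at least 1 in 38.6%, while TATAAA was present in 12.4%. The Crabp1 window held none of these letters but 12 CpG dinucleotides, against 2 in Rbp2 and a median of 6 over all windows. No direct repeat of the hexamers with 1, 2 or 5 bases between was found in the windows of the 6 matched genes, and 0.426% of all windows had one.

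Levels are given in CPM, the UMIs (unique molecular identifiers, 1 per captured transcript) of a gene in 1000000 UMIs of the cells of a type. Kept cells had over 1000 and under 6000 detected genes and under 10% mitochondrial UMIs. Basal cells had at least 10 UMIs of Krt5 and Krt14 and under 10 of Krt1 and Krt10, suprabasal cells at least 20 of Krt1 and Krt10, and fibroblasts at least 30 of Col1a1 and Col3a1 and under 10 of Krt5 and Krt14. Fibroblasts numbered from 518 to 7389 a library and basal cells from 239 to 2807, apart from 21 and 22 in E16.5 MOF cKO. Suprabasal cells numbered from 31 to 361, apart from 9 and 13 in E16.5 MOF cKO. Libraries held from 13609345 to 203392303 UMIs. The labelled cell types held their own markers, with the summed fibroblast markers at 24728 to 62927 CPM in fibroblasts. However, fibroblast markers also reached 30920 CPM in the basal cells of the E17.5 control and 10141 in those of E16.5 control replicate 1, and 931 to 5418 in the basal cells of the other 8 libraries. The E17.5 libraries shared 1702 barcodes, of which 160 were kept control cells (2.99%) and 41 kept QPC cKO cells (0.670%), and values at E17.5 are therefore also given without them. Kat8 in basal cells was 13.0 and 13.7 CPM in the E15.5 controls against 13.4 and 10.3 in MOF cKO, and 16.4 and 14.9 in the E16.5 controls against 8.31 and 4.51 in MOF cKO. The E16.5 MOF cKO values were no higher than what 3 UMIs give in those libraries. The libraries read the 3' end of transcripts and the deleted part of Kat8 is not given in the sources used here, so the Kat8 level does not check the deletion. Uqcrq in basal cells was 103 CPM in the E17.5 control and 45.7 in QPC cKO.

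**Figure D1:**
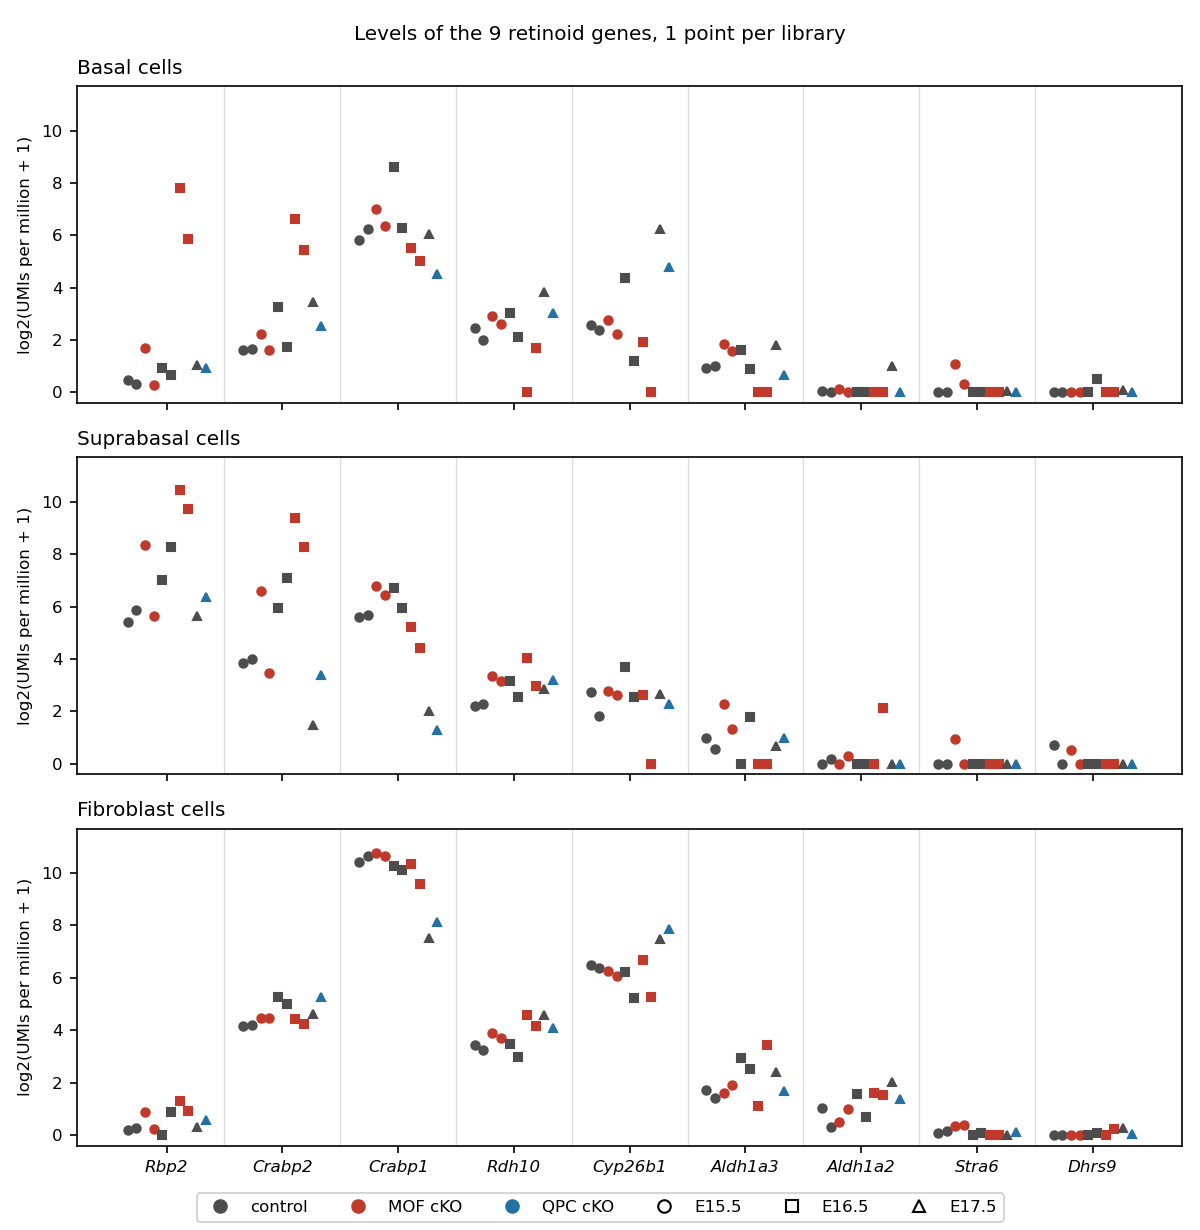
Level of each of the 9 genes, as log2(CPM + 1), in basal, suprabasal and fibroblast cells, with 1 point per library, colour for genotype and shape for stage. Rbp2 stood out in suprabasal cells and Crabp1 and Cyp26b1 in fibroblasts, and the E16.5 MOF cKO points (red squares) of Rbp2 and Crabp2 lay above all controls in both keratinocyte types.

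Rbp2 (chr9:98486115-98509781, plus strand, ENSMUSG00000032454), a cellular retinol binding protein best known from the intestine, was a suprabasal gene in every library. Suprabasal cells held from 66.8% to 94.1% of all Rbp2 UMIs of the kept cells (median 79.8%), although they were few. Its median level over the 10 libraries was 105 CPM in suprabasal cells, 0.909 in basal cells and 0.363 in fibroblasts.

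In suprabasal cells at E15.5, Rbp2 was at 42.0 and 57.6 CPM in the controls, 329 in MOF cKO replicate 5 and 48.3 in MOF cKO replicate 6. The groups thus overlapped, since the mosaic replicate 6 lay between the controls and replicate 5 lay above them. Means with their SD (n = 2) were 49.8 ± 11.04 for the controls and 189 ± 199 for the knockouts. At E16.5, Rbp2 was at 129 and 310 CPM in the controls, against 1407 and 839 in MOF cKO. Both MOF cKO libraries lay above both controls, with a ratio of the means of 5.12.

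Crabp2 (chr3:87948666-87953376, plus strand, ENSMUSG00000004885), which delivers retinoic acid to its receptors, was high in the same libraries as Rbp2 in suprabasal cells. At E15.5 it was at 13.6 and 14.9 CPM in the controls, 96.7 in MOF cKO replicate 5 and 10.0 in replicate 6, so that again replicate 5 alone was high. At E16.5 it was at 60.3 and 137 CPM in the controls, against 664 and 305 in MOF cKO, a ratio of the means of 4.92 with no overlap. At E16.5, where 2 of the 9 genes (Rbp2 and Crabp2) lay above both controls in suprabasal cells and 1 (Crabp1) below, 11.6% of the 8687 genes with at least 10 UMIs lay above and 49.6% below, 61.2% in all. At E15.5, 3 of the 9 (Crabp1, Rdh10, Aldh1a3) lay above both controls and 0 below, while 16.7% of 10819 genes lay above and 21.8% below, 38.5% in all. Of the 9 genes, 5 passed the count filter behind those 10819, and Aldh1a3 did not. Without suprabasal cells that held fibroblast markers, Crabp1 at E15.5 was at 6.57 and 8.99 CPM in the controls, against 8.72 and 8.61 in MOF cKO, and the groups overlapped. Without those cells Rbp2 at E16.5 was at 142 and 321 CPM in the controls, against 1407 and 955 in MOF cKO, and Crabp2 at 59.9 and 139 against 664 and 406. Suprabasal cells at E16.5 were not fitted, since MOF cKO replicate 1 had 9 of them.

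The same pair was found in basal cells of E16.5 MOF cKO, as defined here by keratin UMIs. The study describes suprabasal cells with high Krt5 and low Krt1 in E16.5 MOF cKO. Whether such cells were counted as basal here was not tested. Rbp2 was at 0.894 and 0.590 CPM in the basal cells of the controls (3 and 4 UMIs) and at 224 and 56.4 in those of MOF cKO (81 and 25 UMIs). Crabp2 was at 8.64 and 2.36 CPM in the controls, against 97.0 and 42.9 in MOF cKO, without overlap. These MOF cKO values came from few cells, as Rbp2 was detected in 7 of 21 cells of replicate 1 and 2 of 22 of replicate 2, and the 3 cells with most Rbp2 held 88.9% of the Rbp2 UMIs of replicate 1. Of the cells with Rbp2, 5 in replicate 1 and 2 in replicate 2 also had Crabp2. Suprabasal markers summed to 4063 and 1383 CPM in these MOF cKO basal cells and to 929 and 2086 in the controls, with all 7 markers above 0 in each library, and their part in the result was not tested. In basal cells at E16.5, 2 of the 9 genes lay above both controls (10.6% of 9454 genes tested) and 3, Crabp1, Rdh10 and Aldh1a3, below (51.5%), against 62% of genes without overlap in all. Of the 9 genes, 3 (Rbp2, Crabp1 and Crabp2) passed the count filter behind those 9454, so that the shares do not cover low genes such as Rdh10 and Aldh1a3. Rdh10 had 1 UMI in MOF cKO, and Aldh1a3 had 0, which allows up to 3.73 CPM by 3 UMIs over the group, above both controls (2.09 and 0.885), so that a lower Aldh1a3 level was not detectable at this depth. At E15.5, basal Rbp2 was at 0.405 and 0.238 CPM in the controls, 2.25 in MOF cKO replicate 5 and 0.235 in replicate 6, and basal Crabp2 at 2.10, 2.16, 3.75 and 2.11, so that both were above the controls in replicate 5 alone.

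**Figure D2:**
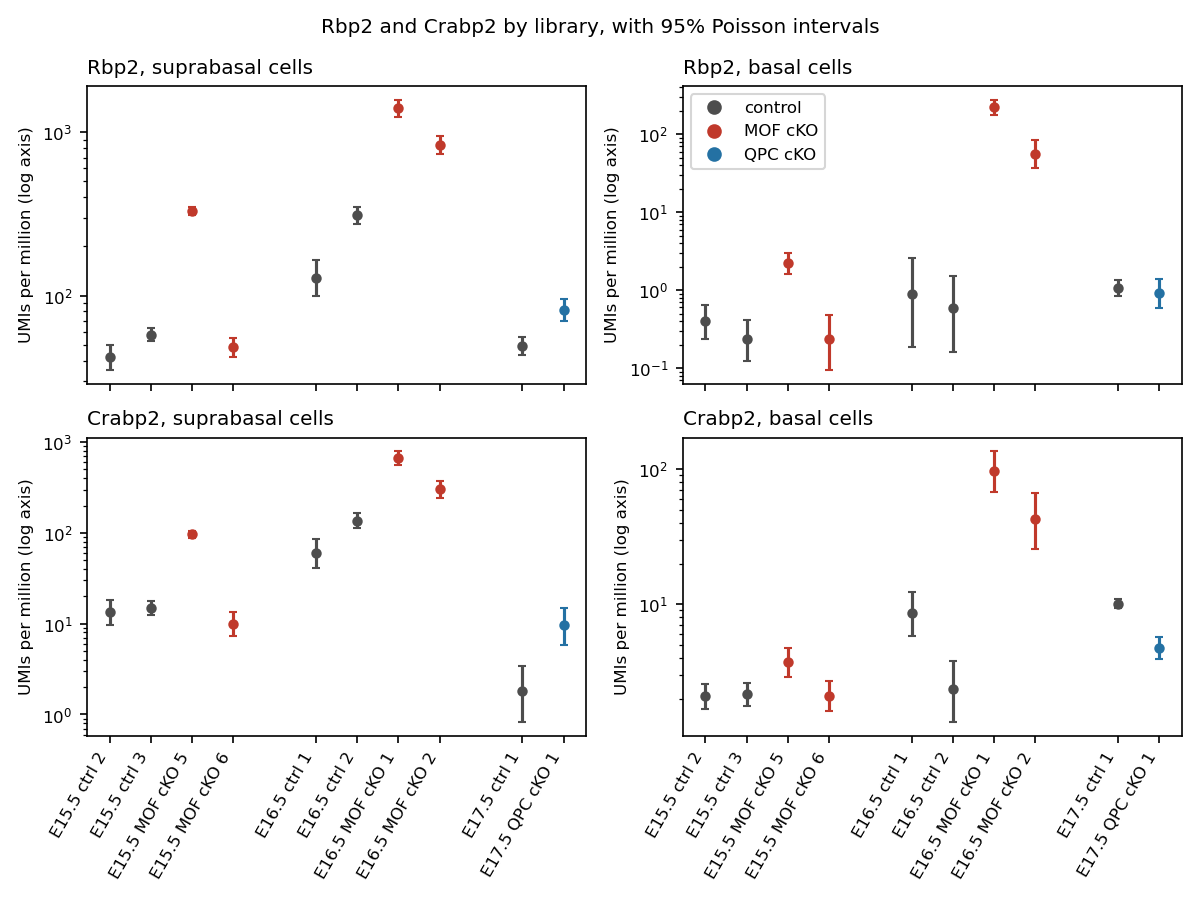
Rbp2 and Crabp2 in suprabasal and basal cells of each library, as CPM on a log axis, with exact 95% Poisson intervals that cover counting error only. E16.5 MOF cKO lay highest in all 4 panels, and of the E15.5 MOF cKO libraries replicate 5 lay above the controls while the mosaic replicate 6 lay near them.

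The share of cells with a UMI was also highest in the libraries with the highest levels. Rbp2 was detected in 27.9% (Wilson 95% interval 21.3 to 35.6) and 36.8% (32.0 to 41.9) of suprabasal cells of the E15.5 controls, in 71.3% (64.4 to 77.3) of MOF cKO replicate 5 and in 29.1% (23.4 to 35.5) of replicate 6. After each cell was thinned to 5000 UMIs, these shares were 16.0%, 14.6%, 52.0% and 12.4%, from which 3, 12, 13 and 11 cells under 5000 UMIs were left out. At E16.5, Rbp2 was detected in 35.5% (21.1 to 53.1) and 53.0% (41.2 to 64.6) of control suprabasal cells, in all 9 cells of MOF cKO replicate 1 (100%, 70.1 to 100) and in 76.9% (49.7 to 91.8) of replicate 2. Thinned, these were 15.4%, 44.6%, 100% and 83.3%. Cells under 5000 UMIs were left out here too, so the share in MOF cKO replicate 2 rose because it was taken over fewer cells. In fibroblasts, which should lack the gene, Rbp2 was detected in 0 to 1.93% of cells over the 10 libraries, at median depths of 9755 to 20088 UMIs against 11541.5 to 28847.5 in suprabasal cells.

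Crabp2 was detected in 13.6% and 9.70% of E15.5 control suprabasal cells, in 41.0% of MOF cKO replicate 5 and in 10.3% of replicate 6, and in 4.17%, 3.72%, 21.7% and 4.46% after thinning. At E16.5 it was detected in 22.6% and 25.8% of control suprabasal cells and in 9 of 9 and 11 of 13 cells of MOF cKO, and after thinning in 15.4%, 23.2%, 87.5% and 75.0%. All 9 suprabasal cells of E16.5 MOF cKO replicate 1 and 10 of the 13 of replicate 2 held both Rbp2 and Crabp2, against 5 of 31 and 12 of 66 in the controls.

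Within suprabasal cells, the cells were then split by Lor and Ivl, genes of the late, granular stage of differentiation, at 20 UMIs of both together. Crabp2 in the controls was a gene of the late cells. In E15.5 controls it was at 221 and 287 CPM in Lor and Ivl cells and at 5.16 and 3.65 in the other suprabasal cells. In E16.5 controls it was at 225 and 589 against 10.5 and 7.78. In E16.5 MOF cKO Crabp2 was at 487 and 441 CPM in Lor and Ivl cells (2 cells and 1 cell) and at 713 and 277 in the others (7 and 12 cells), so that the order turned in replicate 1 and was kept in replicate 2.

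Rbp2 in E16.5 controls was at 398 and 949 CPM in Lor and Ivl cells and at 47.1 and 128 in the other suprabasal cells. In E16.5 MOF cKO it was at 1875 and 1342 CPM in Lor and Ivl cells (2 cells and 1 cell) and at 1280 and 736 in the others, in the order of the controls in both libraries. At E15.5, Rbp2 in these other cells was at 27.2 and 42.5 in the controls, 249 in MOF cKO replicate 5 and 38.6 in replicate 6, and Crabp2 in them was at 57.6 in replicate 5 and 4.83 in replicate 6. Thus in the libraries with high Rbp2 and Crabp2, the cells with few Lor and Ivl UMIs were among those that held Rbp2 and Crabp2. The study reports weaker Lor staining in MOF cKO skin and lower cornified envelope genes in E16.5 MOF cKO suprabasal cells. Late cells of MOF cKO could therefore have been counted among the other cells. Whether those other cells were at an earlier stage was not tested. The number of Lor and Ivl cells was 11 and 17 in the E15.5 controls, against 18 and 18 in MOF cKO, and 7 and 17 in the E16.5 controls. Suprabasal cells of both E17.5 libraries contained 0 such cells.

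**Figure D3:**
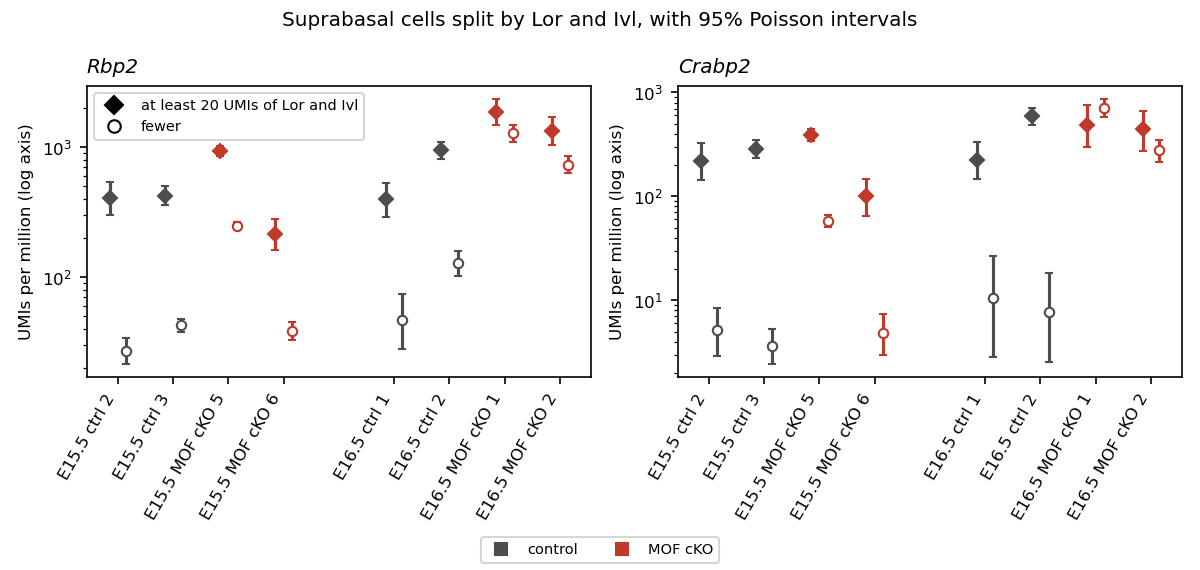
Rbp2 and Crabp2 in CPM (log axis, exact 95% Poisson intervals) in suprabasal cells with at least 20 UMIs of Lor and Ivl (diamonds) and in the other suprabasal cells (open circles), by library at E15.5 and E16.5. In controls the open circles lay well below the diamonds, and in E16.5 MOF cKO the open circles lay closer to the diamonds or above them.

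Crabp1 (chr9:54764748-54773110, plus strand, ENSMUSG00000032291), which binds retinoic acid in the cytoplasm, was a fibroblast gene, with 60.1% to 98.2% of its UMIs in those cells. In fibroblasts it was at 1355 and 1618 CPM in the E15.5 controls and at 1734 and 1587 in MOF cKO. At E16.5 it was at 1233 and 1113 in the controls, against 1286 and 769 in MOF cKO, so that the groups overlapped at both stages. At E17.5 Crabp1 was at 184 (Poisson interval 180 to 188) in the control and 277 (273 to 281) in QPC cKO, far under the values of the other stages. It was detected in 85.5% to 94.8% of fibroblasts at E15.5 and E16.5 and in 52.1% and 60.9% at E17.5, and after thinning in 76.0% to 89.9% and in 34.2% and 44.6%.

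Cyp26b1 (chr6:84571414-84593908, minus strand, ENSMUSG00000063415), which clears retinoic acid, was at 89.6 and 82.0 CPM in fibroblasts of the E15.5 controls and at 75.6 and 67.0 in MOF cKO. Both MOF cKO libraries lay below both controls, with means of 85.8 ± 5.33 (SD, n = 2) and 71.3 ± 6.02 (SD, n = 2), a difference of 0.26 on the log2 scale toward control. At E16.5 the libraries spread widely and overlapped, with 73.4 and 36.7 in the controls, against 101 and 37.4 in MOF cKO. At E17.5 Cyp26b1 was at 176 in the control and 231 in QPC cKO, a ratio of 1.31, and was detected in 66.2% and 76.7% of fibroblasts (44.0% and 53.7% after thinning). Of the 9 genes in fibroblasts at E15.5, 3 lay above both controls (Crabp2, Rdh10 and Stra6) and 1 below (Cyp26b1), against 26.3% and 20.4% of 16268 genes tested, 46.7% in all, and 8 of the 9 were in that set. At E16.5, 2 lay above (Rbp2 and Rdh10) and 1 below (Crabp2), against 18.1% and 35.8% of 12569 genes, 53.9% in all, a set that held 6 of the 9 and not Rbp2.

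Rdh10 (chr1:16105774-16133734, plus strand, ENSMUSG00000025921), which oxidises retinol, lay higher in the fibroblasts of both MOF cKO libraries at both stages. It was at 9.91 and 8.61 CPM in the E15.5 controls, against 14.0 and 12.0 in MOF cKO, and at 10.2 and 6.97 in the E16.5 controls, against 22.6 and 17.1 in MOF cKO. The ratio of the means was 1.41 at E15.5 and 2.32 at E16.5, and the groups did not overlap at either stage. In suprabasal cells at E15.5 Rdh10 was at 3.64 and 3.87 in the controls, against 9.30 and 7.83 in MOF cKO, also without overlap. At E17.5 its direction in fibroblasts was the other way, with 23.1 CPM in the control, against 16.0 in QPC cKO.

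Crabp2 was also present in fibroblasts, which held 44.4% to 91.3% of its UMIs. There it was at 16.8 and 17.3 CPM in the E15.5 controls, against 20.9 and 21.4 in MOF cKO, and at 37.6 and 31.3 in the E16.5 controls, against 20.6 and 18.0 in MOF cKO. The groups did not overlap at either stage, with the MOF cKO libraries above the controls at E15.5 and below them at E16.5. At E17.5 fibroblast Crabp2 was at 23.7 in the control and 37.5 in QPC cKO.

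Crabp1 and Cyp26b1 were also counted in keratinocytes. In the 8 libraries other than E16.5 MOF cKO, basal cells that carried fibroblast markers as well held 65.0% to 98.6% of the basal Crabp1 UMIs and 77.5% to 94.7% of those of Cyp26b1. In suprabasal cells of these libraries the shares were 60% to 93.5% for Crabp1 and 23.5% to 100% for Cyp26b1. In E16.5 MOF cKO such cells held 0% of the 16 and 14 basal Crabp1 UMIs, and 0% and 33.3% of the 7 and 6 suprabasal ones. Basal cells with at least 30 UMIs of Col1a1 and Col3a1 were 159 of 2470 and 175 of 2584 in the E15.5 controls, 116 of 901 and 130 of 1445 in MOF cKO, 75 of 239 and 23 of 464 in the E16.5 controls, 0 of 21 and 0 of 22 in MOF cKO, 1270 of 2807 in the E17.5 control and 98 of 1066 in QPC cKO. At E15.5 they held 88.5% to 93.7% of the basal Crabp1 UMIs. Basal Crabp1 was at 55.7 and 75.6 CPM in the E15.5 controls, against 127 and 81.6 in MOF cKO, and without these cells at 5.23 and 9.59 against 9.75 and 10.3.

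At E16.5, basal Crabp1 was at 387 and 77.4 CPM in the controls, against 44.3 and 31.6 in MOF cKO, and thus lower in MOF cKO. Without the cells with fibroblast markers it was at 15.47 and 29.1 in the controls and still 44.3 and 31.6 in MOF cKO, and thus higher. The direction in basal cells therefore turned with those cells, and the same held in suprabasal cells, where Crabp1 went from 103 and 60.5 in the controls to 19.98 and 25.1, against 36.3 and 20.6 in MOF cKO with them and 36.3 and 27.5 without. Basal Cyp26b1 was at 19.96 and 1.33 CPM in the E16.5 controls, against 2.77 and 0 in MOF cKO (1 UMI in all), and the 2 controls differed more from each other than control replicate 2 did from MOF cKO.

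**Figure D4:**
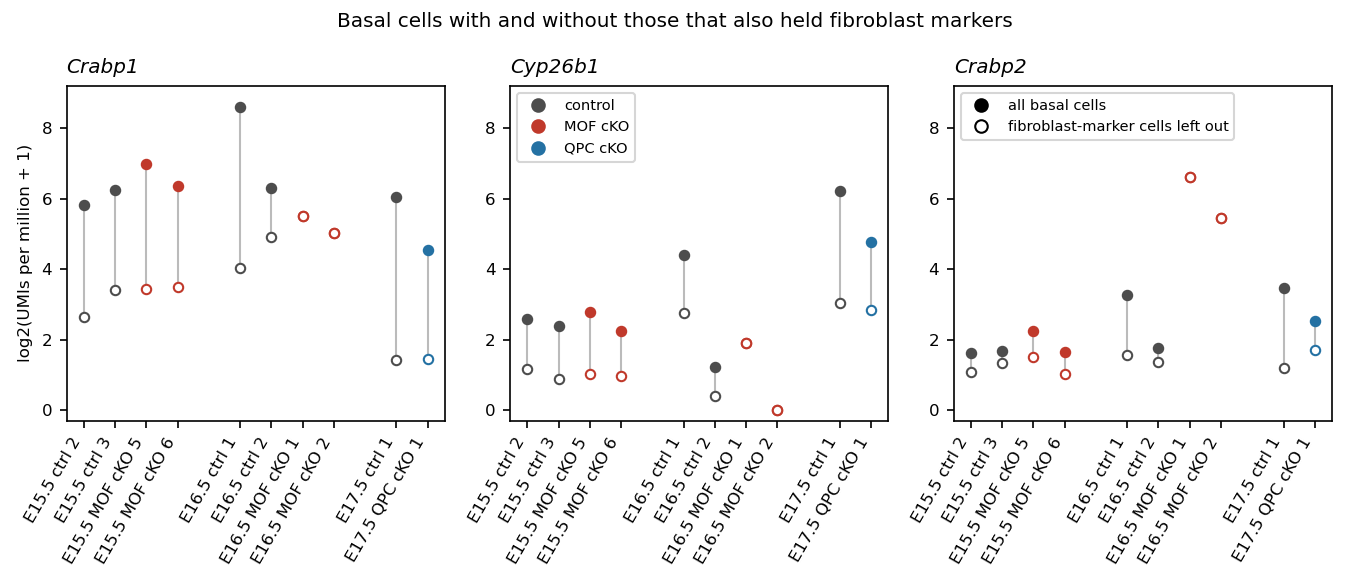
Crabp1, Cyp26b1 and Crabp2 in basal cells of each library as log2(CPM + 1), in all basal cells (filled) and without those that held at least 30 UMIs of Col1a1 and Col3a1 (open). Crabp1 and Cyp26b1 were lower without these cells in every library that had them, with Crabp1 of the E17.5 control going from 64.8 to 1.68 CPM, while Crabp2 of E16.5 MOF cKO stayed at 97.0 and 42.9 CPM since no cell was left out there.

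The comparison of QPC cKO with control at E17.5 rests on 1 library each and has no replicate check. In basal cells, 4 of the 9 genes lay below the control by at least 2-fold (Crabp1, Cyp26b1, Aldh1a3 and Aldh1a2, on log2 of the level plus 1) and 0 above, against 8.91% and 1.22% (10.1% in all) of 17001 genes with at least 10 UMIs. Crabp1 was at 64.8 CPM (62.9 to 66.8) in the control and 22.2 (20.4 to 24.0) in QPC cKO, and Cyp26b1 at 73.9 (71.9 to 76.0) and 26.5 (24.6 to 28.6). Without the basal cells with fibroblast markers, Crabp1 was at 1.68 and 1.73 and Cyp26b1 at 7.24 and 6.16, so that neither was 2-fold apart. Without the shared barcodes they were at 65.4 and 20.5 (Crabp1) and at 74.7 and 26.2 (Cyp26b1). Aldh1a2 had 69 UMIs in basal cells of the control and 0 in QPC cKO, at least 9.03-fold lower by a limit of 3 UMIs in the library, and of the 69 UMIs 3 were left without those cells. Aldh1a3 was at 2.49 CPM and 0.577 (165 and 15 UMIs), and at 1.06 and 0.380 without those cells. Basal Crabp2 was at 10.1 and 4.77 CPM, and without those cells at 1.29 and 2.24, the other way.

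In suprabasal cells at E17.5, 1 gene lay 2-fold or more above the control, Crabp2, with 9 UMIs or 1.81 CPM (0.826 to 3.43) in the control and 20 UMIs or 9.58 (5.85 to 14.8) in QPC cKO, and 0 lay below, against 1.92% and 4.09% (6.01% in all) of 11556 genes. Rbp2 was at 49.0 CPM (43.0 to 55.5) in the control and 81.9 (70.1 to 95.1) in QPC cKO, a ratio of 1.67. In QPC cKO 1 cell held 10 of the 20 Crabp2 UMIs, and 1 cell held 35 of the 171 Rbp2 UMIs. The most in 1 control cell was 2 for Crabp2 and 12 for Rbp2. The Poisson intervals do not cover this spread between cells. Without the shared barcodes suprabasal Rbp2 was at 45.3 and 75.4 CPM and Crabp2 at 1.66 and 9.80. In fibroblasts 0 of the 9 genes passed 2-fold, against 0.57% of 16505 genes above and 1.21% below (1.78% in all). Leaving out the barcodes shared by the 2 libraries gave the same number of genes past 2-fold, 5 over the 3 cell types.

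Of the genes that supply retinoic acid, Aldh1a3 (chr7:66390890-66427517, minus strand, ENSMUSG00000015134) was at 0 to 2.57 CPM in basal cells and 1.18 to 9.74 in fibroblasts over the 10 libraries. In basal cells at E15.5 Aldh1a3 was at 0.906 and 1.03 in the controls, against 2.57 and 1.98 in MOF cKO, 1 of the 4 genes above both controls there with Crabp1, Rdh10 and Stra6, against 17.7% of 14364 genes tested, a set that held 6 of the 9 genes and not Stra6. Of the 9 genes 0 lay below, against 32.9%, and 50.7% of all genes did not overlap.

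Aldh1a2 (chr9:71215789-71296243, plus strand, ENSMUSG00000013584) was low, at 0.247 to 3.08 CPM in fibroblasts. In cells with mural markers it ranged from 0 to 15.2 CPM over the libraries, with a median of 2.07. Fibroblasts held 60% to 100% of the Aldh1a2 UMIs of a library (median 88.6%) and cells with mural markers 0% to 17.6% (median 2.44%). Dhrs9 (chr2:69380445-69404533, plus strand, ENSMUSG00000027068) had at most 7 UMIs in any of the 3 cell types of a library, and outside these its highest level was in cells with immune markers at E17.5, with 3.55 CPM in the control, against 3.48 in QPC cKO. Stra6 (chr9:58063788-58153996, plus strand, ENSMUSG00000032327) was detected in E15.5 MOF cKO basal cells with 21 and 8 UMIs, against 1 and 1 in the controls. Of these, 16 and 4 UMIs lay in basal cells with at least 3 UMIs of the hair germ markers Sox9, Lhx2, Shh and Edar, where Stra6 was at 3.22 and 0.853 CPM against 0 and 0.101 in the controls. At E16.5 Stra6 had 0 UMIs in basal cells of all 4 libraries, which allows by 3 UMIs up to 0.894 and 0.442 CPM in the controls and up to 8.31 and 6.77 in MOF cKO, so that a Stra6 level like that of E15.5 would not be detectable in the latter.

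Rbp2 was seen outside keratinocytes in cells with endothelial markers, at 3.59 to 7.94 CPM at E15.5 and 0 to 20.8 over all libraries. Cyp26b1 in cells with mural markers was at 10.2 to 55.0 CPM over the libraries, and in cells without any marker class at 58.4 to 431.

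**Figure D5:**
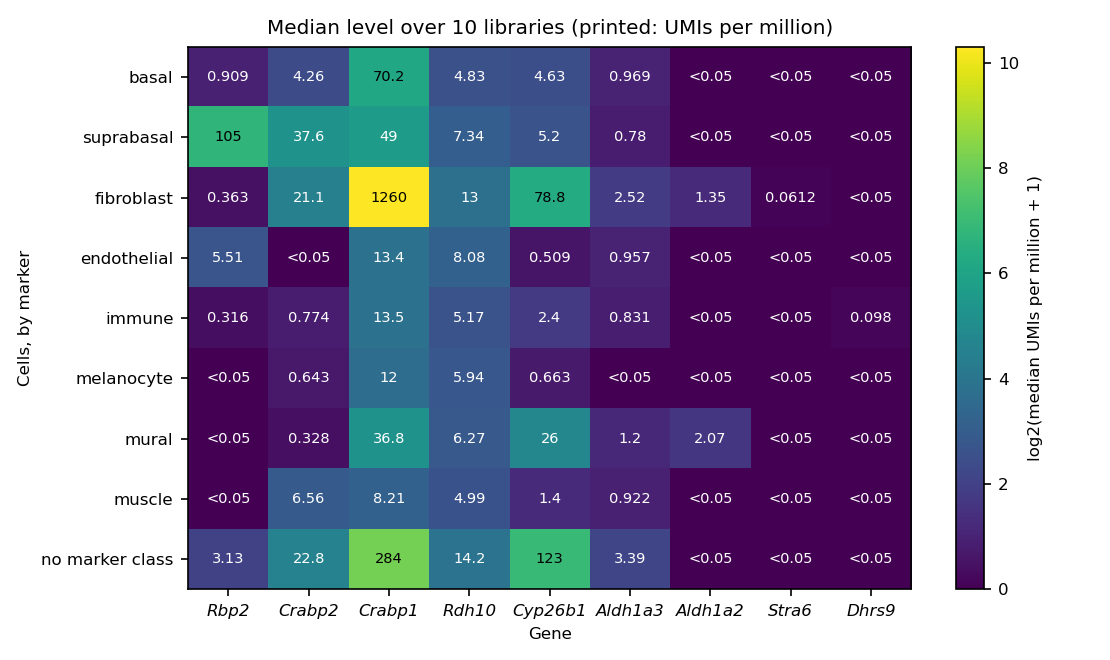
Median level of the 9 genes over the 10 libraries in cells grouped by markers, with CPM printed in each cell of the map and colour for log2 of the level plus 1. By median, Rbp2 was highest in suprabasal cells (105), Crabp1 in fibroblasts (1260) and Cyp26b1 in cells of no marker class (123).

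The other genes of the retinoid pathway were taken as a list of 54, also chosen with earlier results known, and tested with edgeR's quasi-likelihood test with Benjamini-Hochberg adjustment over all genes. None passed an adjusted p of 0.05 in any of the 5 comparisons that could be fitted, with 0 of 35 tested in basal cells, 0 of 30 in suprabasal cells and 0 of 40 in fibroblasts at E15.5, and 0 of 22 in basal cells and 0 of 30 in fibroblasts at E16.5. At an unadjusted p under 0.05 there were 1, 3, 7, 5 and 6, and DESeq2 called 0, 0, 0, 1 and 0 (of 120, 49, 482, 307 and 938 genes called in all). Over all genes, edgeR called 0% in the 3 comparisons at E15.5, 0.243% in basal cells and 4.64% in fibroblasts at E16.5 (2.43% higher and 2.21% lower in MOF cKO). At an unadjusted p under 0.05 the shares of all genes were 9.11%, 7.73%, 15.6%, 20.3% and 25.2%. The median log2 change of the list was -0.03, 0.08, 0.05, -0.11 and 0.20 in that order, against -0.01, -0.01, 0.00, -0.11 and 0.01 over all genes tested.

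Fabp5, a fatty acid binding protein that can also carry retinoic acid, had the most UMIs of the list in every comparison. In basal cells at E16.5 it was at 903 and 1400 CPM in the controls, against 8070 and 2927 in MOF cKO, with a log2 change of 2.75 ± 0.62 (SE) and an edgeR adjusted p of 0.126. DESeq2 called it in basal cells at E16.5 (log2 change 2.74, adjusted p = 0.00190). In suprabasal cells at E16.5 Fabp5 was at 6985 and 7539 in the controls, against 27296 and 26589 in MOF cKO. At E15.5 suprabasal Fabp5 was at 10689 and 12730 in the controls, against 11928 and 9840 in MOF cKO, with no separation.

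Adh1, an alcohol dehydrogenase able to oxidise retinol, lay lower in suprabasal cells of both MOF cKO libraries at E16.5. It was at 36.2 and 199 CPM in the controls, against 5.19 and 6.85 in MOF cKO, which were 1 and 2 UMIs. In that comparison 49.6% of 8687 genes lay below both controls. At E15.5 Adh1 was at 21.8 and 55.3 in suprabasal cells of the controls, against 8.85 and 19.6 in MOF cKO (edgeR adjusted p = 0.631). Sdr16c5, another retinol dehydrogenase, was at 129 and 205 in the E16.5 controls and at 62.3 and 61.7 in MOF cKO.

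Among list genes in basal cells at E15.5, Meis2, a homeobox gene known to respond to retinoic acid, was at 52.5 and 56.6 CPM in the controls, against 79.4 and 74.1 in MOF cKO, and its edgeR adjusted p was 0.508. Rarg, the main retinoic acid receptor of the epidermis, was at 68.8 and 58.7 in basal cells of the E16.5 controls and 36.0 and 49.6 in MOF cKO, with a log2 change of -0.06 ± 0.33 (SE) and an edgeR adjusted p of 0.945. Rdh11, a retinal reductase chosen after its values were seen, had 51 and 54 UMIs in basal cells of the E16.5 controls and 0 in both MOF cKO libraries, at least 3.10-fold lower by a limit of 3 UMIs over the group. In that comparison 51.5% of 9454 genes tested lay below both controls. At E17.5, 2 of 40 list genes lay at least 2-fold above the control and 5 below in basal cells, 0 and 1 of 32 in suprabasal cells and 0 and 0 of 39 in fibroblasts.

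Genes with the most similar pattern were sought over the 30 profiles of 10 libraries and 3 cell types, which share libraries, so that Pearson's r of the log2 levels is a description. For Rbp2 they were Tprg (0.99), Tgm3 (0.98), a transglutaminase of the late epidermis, and Ephx3 (0.98), an epoxide hydrolase. For Crabp2 they were Prdx5 (0.90), Kctd11 (0.90) and Pls3 (0.86), and for Crabp1 they were Ddah1 (0.92), Lgals1 (0.91) and Mdk (0.91). For Cyp26b1 they were Tmem132c (0.95), Runx3 (0.95) and Col6a3 (0.95), for Rdh10 Flot1 (0.85), Prrc1 (0.84) and Nt5e (0.84), and for Aldh1a3 Rnf144a (0.78), Kcnj8 (0.78) and Cthrc1 (0.77). For Aldh1a2 they were 1810055G02Rik (0.80), Mxra8 (0.80) and Cxcl5 (0.79). For Stra6 and Dhrs9 r did not pass 0.67 and 0.47 for B930036N10Rik and Lce3f. Among the 9 genes themselves, Crabp1 and Cyp26b1 (0.70), Rdh10 and Cyp26b1 (0.70) and Rbp2 and Crabp2 (0.64) were most alike, and Rbp2 and Cyp26b1 (-0.64) least.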

How the data were processed

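Single-cell RNA-seq counts of mouse back skin were analysed in 10 libraries made with the 10x Genomics 3' kits. Per the labels and the study, the authors counted UMIs with Cell Ranger (6.1.2; the notes for E16.5 and E17.5 also list 1.3.1) on mm10. The deposited values are counts per gene and called barcode, with no normalization. The 9 genes, the list of 54 and the cell types were chosen with earlier results of these data known.

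Counts were summed per library and cell type, so that samples and not cells were replicates. Marker classes outside the 3 cell types needed 5 UMIs. No doublet caller was run, and cells with the markers of another type (30 UMIs of Col1a1 and Col3a1 in keratinocytes) were left out as an alternative. Levels are given per 1000000 UMIs, with exact Poisson intervals of 95% and Wilson intervals for shares. These cover counting error only, and 3 UMIs serve as the limit where none was counted. The list was tested with edgeR 4.0.16 (R 4.3.3, filterByExpr, TMM, glmQLFTest), 2 against 2 per stage and where each library had at least 10 cells. DESeq2 1.42.0 was an alternative. Named list genes come from the 5 most abundant per comparison and any past the threshold, not all of which are named. Rdh11 is the exception, chosen after its values were seen. Per member, up to 3 genes of most similar pattern with a mean of at least 10 CPM are named. The study names embryos for the E15.5 libraries and only samples for E16.5, so p-values at E16.5 measure only the spread between these samples, which may be technical. The test was checked on simulated counts. Coordinates are GENCODE M21 (GRCm38), start sites RefSeq. Some genes and 1 class of cells are not reported here. Alternatives are given at the end.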

Additional observations from a re-analysis of the deposited data

Results flagged for a closer look

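For 5 combinations of gene and cell type, both MOF cKO libraries lay above both controls at E15.5 and below both at E16.5. Such positions were common among all genes. In basal cells 17.7% lay above both controls at E15.5 and 51.5% below both at E16.5. These shares were 16.7% and 49.6% in suprabasal cells and 26.3% and 35.8% in fibroblasts. The share of all genes with both positions was not counted. The 5 combinations are therefore not shown to be particular to retinoid genes. The difference between the stages was not tested, and stage, chemistry and gene list changed together. The log2 ratio of MOF cKO over control (level plus 1) of Crabp1 in basal cells was 0.66 at the earlier and -2.58 at the later stage, and 0.97 and -1.49 in suprabasal cells. Once cells with fibroblast markers were left out, the E16.5 value was above 0 in both cell types, and the E15.5 value in suprabasal cells was 0.14, with overlapping groups. For Crabp2 in fibroblasts it was 0.29 and -0.81. For Rdh10 in basal cells it was 0.52 and -1.56, with 1 UMI in the E16.5 MOF cKO libraries, and for Aldh1a3 in basal cells 0.73 and -1.31, with 0 UMIs there. The limit by 3 UMIs, 3.73 CPM over those libraries, lay above the Aldh1a3 control mean of 1.49, so no lower Aldh1a3 level is shown at E16.5.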

How the results depend on the processing

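Of the log2 ratios of the 9 genes under another setting, 422 moved by less than the spread between replicates or counting error and 119 by more, and 39 of the 541 changed sign. Of these 39, 4 were ratios without overlap of the groups or past 2-fold, all of Crabp1. In E16.5 basal cells Crabp1 went from -2.58 to 0.026 with the marker limits doubled and to 0.74 without cells that held markers of another cell type. Without those cells it also went to 0.48 in E16.5 suprabasal cells and to 0.029 in E17.5 basal cells. Another 11 changed sign and moved by more than the spread. Without MOF cKO replicate 5 at E15.5, suprabasal Rbp2 went from 1.90 to -0.04 and Crabp2 from 1.84 to -0.47, and in basal cells Rbp2 went from 0.76 to -0.10, Crabp2 from 0.33 to -0.01 and Cyp26b1 from 0.04 to -0.25. Crabp2 in E17.5 basal cells went from -0.94 to 0.45 with doubled marker limits and to 0.50 without cells with other markers. The other 4 were Cyp26b1, in E15.5 suprabasal cells (0.37 to -0.13 and -1.28), in E16.5 basal cells without control replicate 1 (-2.29 to 0.04) and in E16.5 fibroblasts without MOF cKO replicate 1 (0.32 to -0.55). The 5 genes past 2-fold at E17.5 became 1 with doubled marker limits and 1 without those cells. Of 27 genes of similar pattern, 0 stayed in the first 3 over control profiles only. Combinations of gene, cell type and library with at least 10% of cells detected went from 91 to 57 at 5000 UMIs a cell. Over the 9 genes, 3 cell types and both MOF cKO stages, 22 combinations had no overlap between MOF cKO and control. They became 25, 20 and 22 at a mitochondrial limit of 5%, with doubled marker limits and without cells with other markers. Of all genes, 38.5% to 62% did not overlap in the same comparisons.

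Counts of list genes called by edgeR were 0 in the 5 comparisons. Without the low-count filter they were 3 in E15.5 suprabasal cells, 4 in E16.5 basal cells and 3 in E16.5 fibroblasts, of 525, 991 and 1752 genes called in all. In E16.5 basal cells DESeq2 called 1 (Fabp5) of 307 in all, and doubled marker limits gave 3 of 448. Leaving out each library in turn gave 0 to 16 calls in E15.5 basal cells, 0 to 7 in suprabasal cells, 0 to 1 in fibroblasts and 0 to 1 in E16.5 basal cells, the lone library left in a group being assumed to vary like the others. The highest counts at E15.5 came without the mosaic MOF cKO replicate 6, with 7519 genes called in all in basal cells, 1762 in suprabasal cells and 114 in fibroblasts. Basal Fabp5 was then called lower (log2 change -1.24). Without MOF cKO replicate 5 the count in E15.5 basal cells was 2 of 747, with Meis2 among them, and without control replicate 2 it was 1 of 434 in E16.5 basal cells, Fabp5. With the replicate number as a block, 0 were called in both E16.5 fits. In deviations from their group means, same-numbered samples correlated at -0.08 in basal cells and -0.04 in fibroblasts at E16.5. With so few libraries these values cannot show whether same-numbered samples were paired. The study speaks of pairs of samples with littermate controls. At E15.5 no numbers were shared. Scaling by library size moved the median log2 change of all genes by -0.52 in E16.5 basal cells and by -0.13 to 0.02 elsewhere. The cause of these changes was not tested. The E16.5 MOF cKO libraries held 9 to 22 keratinocytes of a type, which limits what can be detected there.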

Other observations

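Kat8 was lower in dermal cells of MOF cKO, which Krt14-Cre is not known to target, while in E15.5 basal cells the groups overlapped. In fibroblasts it was at 9.18 and 9.62 CPM in the E15.5 controls, against 6.83 and 5.98 in the knockouts. There 20.4% of 16268 genes tested lay below both controls. In cells with endothelial markers Kat8 was at 11.1 and 12.7 against 4.41 and 3.14 CPM. The reason was not tested.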
